A study of Mus musculus with 4 samples.

Results

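The chemokine ligands Cxcl9 and Cxcl10 and their shared receptor Cxcr3 were followed through CD45+ cells of healthy mouse liver, as 3 of the 32285 genes counted. The genes were chosen as a known ligand and receptor set, with their molecule counts in these libraries already seen. Their levels by cell class are therefore given as a description, with no test. Molecules were counted as unique molecular identifiers (UMIs), 1 per captured transcript, near the 3′ end of polyadenylated RNA. The cells came from PA-GFP C57BL/6 livers, in which a light-activated fluorescent protein lets cells of an illuminated zone be sorted. All groups carried PA-GFP and were photoactivated. The PV group comprised 2 libraries from the zone labelled PV, around the portal vein, where blood enters the liver. The CV group comprised 2 libraries from the zone labelled CV, around the central vein, where blood leaves it. The sources used here do not state the age, the sex or the number of animals.

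CXCL9 and CXCL10 are secreted chemokines that many cell types make in response to interferon gamma. CXCL10 is also made downstream of type I interferons and of NF-kappa B. Both bind CXCR3, a receptor on effector and memory T cells, NK cells, group 1 innate lymphoid cells (ILC1) and some dendritic cells, and draw these cells toward sites where the ligands are made. In the liver they are best known for recruiting lymphocytes during hepatitis. Another ligand, CXCL11, is not made as a working protein in C57BL/6 mice, and no row of the matrices carried Cxcl11.

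The ligand genes lie next to each other on chromosome 5 of GRCm38 (the build also called mm10), both on the minus strand, and the receptor gene lies on the X chromosome. In the GENCODE vM21 annotation, the protein-coding gene Cxcl9 spans chr5:92321347-92328079 and Cxcl10 spans chr5:92346638-92348889, with 18558 bases between them. Cxcr3 spans chrX:101731535-101734269, also on the minus strand. The 250 bases before the start of each ligand gene are shown because these are the stretches through which interferons and NF-kappa B act on chemokine genes. They are from RefSeq on GRCm38.p6, at chr5:92328080-92328329 for Cxcl9 and chr5:92348890-92349139 for Cxcl10, read 5′ to 3′ on the minus strand. Capitals mark the motifs found.
Cxcl9: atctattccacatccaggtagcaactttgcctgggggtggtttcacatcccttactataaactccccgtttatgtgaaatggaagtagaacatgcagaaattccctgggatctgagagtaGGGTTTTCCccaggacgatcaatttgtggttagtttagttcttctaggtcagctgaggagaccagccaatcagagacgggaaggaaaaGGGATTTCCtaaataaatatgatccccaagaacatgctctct
Cxcl10: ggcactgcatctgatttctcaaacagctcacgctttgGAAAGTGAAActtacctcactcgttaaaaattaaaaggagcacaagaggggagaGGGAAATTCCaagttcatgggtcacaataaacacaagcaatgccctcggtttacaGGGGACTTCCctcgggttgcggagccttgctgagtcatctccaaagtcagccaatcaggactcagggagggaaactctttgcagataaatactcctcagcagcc

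A search of both strands used 3 motifs. The interferon-stimulated response element (ISRE) core was GAAA, any 2 bases and GAAA. The kappa B site was GGG, any 2 or 3 bases and TTCC, and the gamma-activated site (GAS) was TTC, any 3 bases and GAA. The Cxcl10 stretch held 1 ISRE core match, GAAAGTGAAA, at bases 213 to 204 before the start. It also held 3 kappa B matches, GGGAAATTCC at bases 159 to 150, GGGGACTTCC at 104 to 95, and GGGACTTCC at 103 to 95, which lies inside the one before. The Cxcl9 stretch held 2 kappa B matches, GGGTTTTCC at bases 130 to 122 and GGGATTTCC at 42 to 34, and these letters gave no ISRE core or GAS match in it. Of 32851 promoter stretches of the same length, 2.98% held the ISRE core, 8.26% a kappa B match and 7.02% a GAS match. A match of letters is a description of the sequence and was not tied to binding or to the counts. The Cxcr3 stretch held none of the 3 motifs and is not shown, since RefSeq and GENCODE place the gene's start differently.

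The 4 matrices held 588 to 755 barcodes and 2741760 to 4373488 UMIs each. After the filters, 1593 cells remained, 333 and 512 in PV replicates 1 and 2 and 372 and 376 in CV replicates 1 and 2, with medians of 5369 to 6318 UMIs per cell. Of 1939 distinct barcodes, 282 occurred in more than 1 library and 152 in all 4, and each was kept only where it held at least 70% of its UMIs. Each cell was given the class for which it showed the most of 8 marker genes, with at least 3 required. This placed 1529 cells, including 698 T cells, 271 macrophages, 156 B cells, 124 NK cells and ILC1, 87 neutrophils, 80 type 1 conventional dendritic cells (cDC1), 40 cDC2 and 32 plasmacytoid dendritic cells (pDC). Macrophages with at least 2 of 8 Kupffer genes, such as Clec4f, were called Kupffer cells, the resident macrophages of the liver. PV replicate 1 stood apart, with 5 Kupffer cells against 124 in PV replicate 2 and 56 and 43 in the CV replicates. A further 16 cells carried markers of sinusoidal endothelium, a type that a CD45 sort should remove, and summed hepatocyte marker counts were 27.7 to 196.7 per 1000000 UMIs (counts per UMI total, CPM).

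Cxcl9 came from very few cells. Its 1425 UMIs lay in 40 of the 1593 cells, and a single cell held 28.1% of them, the top 2 held 52.1% and the top 10 held 93.5%. Among the 40 source cells, 18 held 1 UMI and 12 held 10 or more, the lowest of these with 11 and the highest cell below them with 9. Kupffer cells held 613 UMIs in 13 cells, cDC1 381 in 7, monocytes 131 in 1, other macrophages 86 in 4, cDC2 69 in 2 and mature dendritic cells 33 in 4. Macrophages, monocytes and dendritic cells, the antigen-presenting cells of the liver, thus held most of the UMIs assigned to a class.

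The leading Cxcl9 cells belonged to different classes. The first was a Kupffer-gated cell of PV replicate 2, with 400 Cxcl9 UMIs among 23432. This cell showed 7 of 8 macrophage markers, 3 of 8 Kupffer genes and 5 of 8 mature dendritic cell markers, held 61 UMIs of the complement gene C1qa and no UMI of the Kupffer lectin Clec4f, and was not called a doublet. The second was a cDC1 of PV replicate 1, with 343 Cxcl9 UMIs among 33035 and all 8 cDC1 markers. A Kupffer cell of PV replicate 2 held 201, a monocyte of that library 131 and a cDC2 of that library 68. In the CV libraries the leading cell was a macrophage outside the Kupffer gate, with 44 Cxcl9 and 16 Cxcl10 UMIs among 8021.

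Outside the myeloid lineage, the endothelial-like cells held 24 Cxcl9 UMIs in 6 of only 16 cells. Pooled over libraries this was 351 CPM, against 337 CPM in Kupffer cells. All 24 UMIs lay in PV replicate 2, with 16 of them in 1 cell. Lymphocytes held little Cxcl9, with 7 UMIs in 1 cell for NK cells and ILC1 and 1 UMI in 698 T cells. B cells held none, and 0 of 156 cells allows a share with a detected UMI of up to 1.92%, at a median of 3661.5 UMIs per cell. Neutrophils, pDC and plasma cells also held none. Whether counts of 1 UMI in a cell came from free RNA was not tested.

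**Figure D1:**
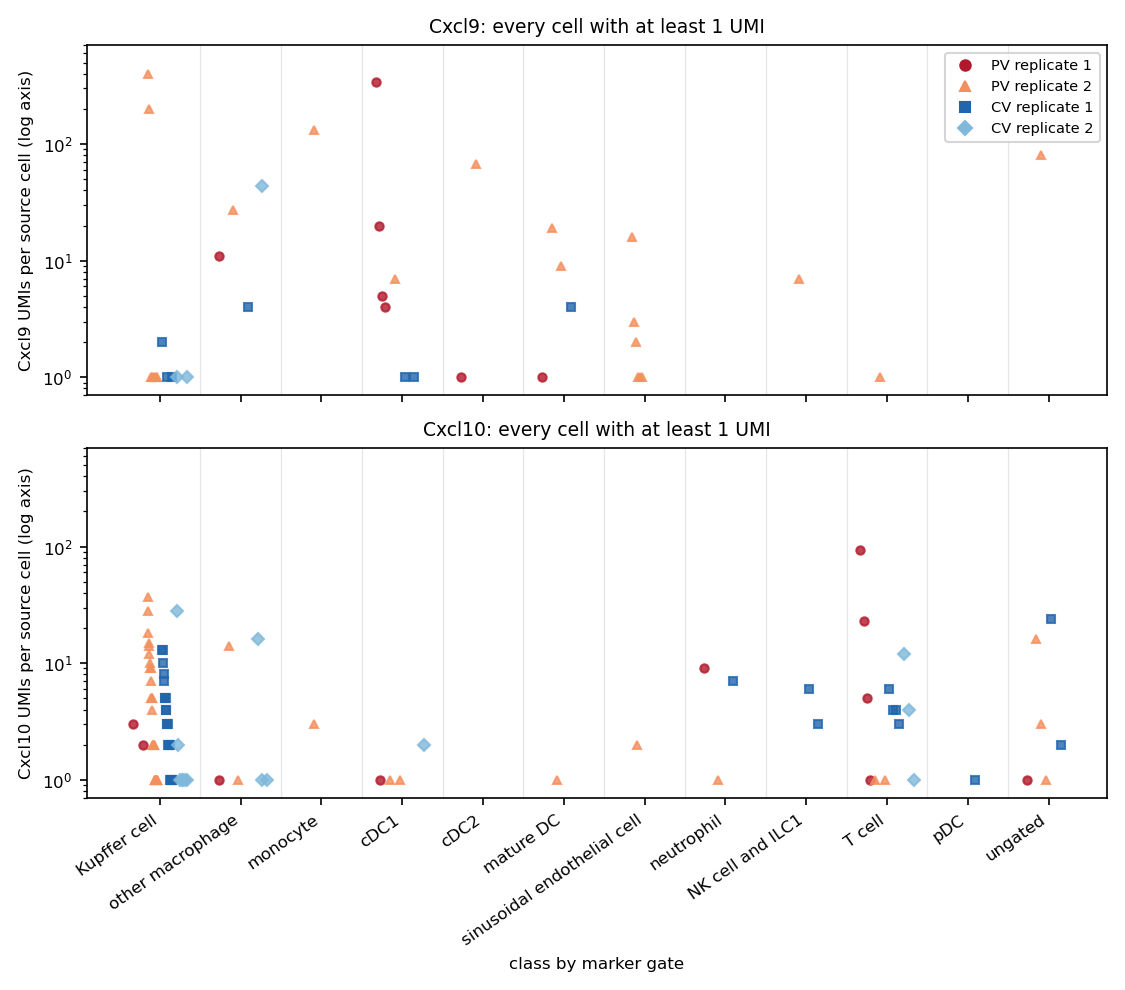
Each point is a cell with at least 1 UMI of Cxcl9 (upper panel) or Cxcl10 (lower panel), placed by cell class on a log axis of UMIs per cell, with colour and shape for the library. Cxcl9 reached 400 and 343 UMIs in single PV cells, while Cxcl10 was spread over 98 cells with a highest count of 93.

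Other interferon-related genes were also read in the 12 cells with 10 or more Cxcl9 UMIs. For 9 of these cells, a class in the same library was large enough to compare. Summed over 26 genes of the interferon gamma axis, which were not used to pick the cells, the level was above the median of the cell's own class and library in 7 of 9. Their median was 42.2 UMIs per 10000, against 17.7 for the class medians. The list also holds receptor, kinase and cytokine genes such as Ifngr1, Jak1 and Il18, so this sum does not measure interferon induction alone. Gbp2, a guanylate-binding protein of cell-autonomous defence, was above its class median in 7 of 9. Cd274, which encodes the checkpoint ligand PD-L1, was above it in 6 of 9, and the transcription factor Irf1 and the ubiquitin-like Isg15 in 5 of 9 each. The class medians of Gbp2, Cd274 and Isg15 were all 0, so a cell with 1 UMI lay above them. Cells were not thinned here. The first Cxcl9 cell had 23432 UMIs, against a Kupffer cell median of 6648 in its library, and the part of depth was not tested. The first Cxcl9 cell alone held 44 UMIs of Gbp2, 28 of Irf1 and 23 of Cd274. These 12 cells were picked by a measured value, so the comparison carries no test.

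Cxcl10 was spread over more cells and its main source was the Kupffer cell. Its 612 UMIs lay in 98 cells, with 335 UMIs in 60 of 228 Kupffer cells, 158 in 13 T cells, 34 in 6 other macrophages, 17 in 3 neutrophils, 9 in 2 NK cells or ILC1 and 5 in 4 cDC1. The highest count in 1 cell was 93 and the top 10 cells held 48.7%. In Kupffer cells the level was 140 and 199 CPM in the PV replicates, against 229 and 95.4 CPM in the CV replicates. The PV mean was 170 ± 41.5 CPM and the CV mean 162 ± 94.7 CPM (SD, n = 2 each). The zones overlapped, and the first PV value rests on 5 UMIs in 2 of 5 cells. At an equal depth of 3000 UMIs per cell, 36 of 171 Kupffer cells held a Cxcl10 UMI, or 21.1% (95% Wilson interval 15.6% to 27.8%). No UMI was seen in 156 B cells or in 40 cDC2.

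T cells were the second source of Cxcl10, and this rested on a handful of cells. The T cell level was 93.4 and 1.53 CPM in the PV replicates, against 16.8 and 15.7 CPM in the CV replicates. A single cell of PV replicate 1 held 93 of the 158 UMIs and another of the same library held 23. The first carried all 8 T cell markers, no macrophage marker and 5 UMIs of Ifng among 12929 UMIs. All 13 Cxcl10-bearing T cells showed 6 to 8 T cell markers, 1 showed any macrophage marker, and none was called a doublet. Ifng, the cytokine that induces these ligands, was detected in 10 of the 13, and in 267 of all 698 T cells. Cxcr3 was detected in all 13, against 67.4% of the other T cells, at median depths of 10809 and 6172 UMIs. Deeper cells show more genes, and the part of depth in the Ifng and Cxcr3 differences was not tested.

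The ligands were found together in 11 cells. Cxcl10 was detected in 27.5% of the cells that held Cxcl9, against 5.60% of the others, at median depths of 11969 and 5812 UMIs. Within Kupffer cells these shares were 38.5% of 13 and 25.6% of the rest. One ungated cell of CV replicate 1 held 24 Cxcl10 UMIs with 7 T cell and 7 macrophage markers, and an ungated cell of PV replicate 2 held 16 with 51557 UMIs and was called a doublet.

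Cxcr3 was carried by lymphocytes, at low counts in many cells. Its 1513 UMIs lay in 653 cells, with no cell above 9 UMIs. T cells held 1143 UMIs in 475 cells, NK cells and ILC1 143 in 67 and cDC1 146 in 55. The T cell level was 246.6 and 262.6 CPM in the PV replicates, against 245.4 and 211.5 CPM in the CV replicates. Over the 4 libraries it averaged 241.5 ± 21.5 CPM (SD, n = 4), and the zones overlapped. In NK cells and ILC1 it was 161.5 and 167.1 CPM in the PV replicates, against 246.6 and 244.2 CPM in the CV replicates. The PV values lay below the CV values, but PV replicate 1 had 13 such cells. This was under the 20 required of classes other than T cells and macrophages, so the zones were not tested there.

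**Figure D2:**
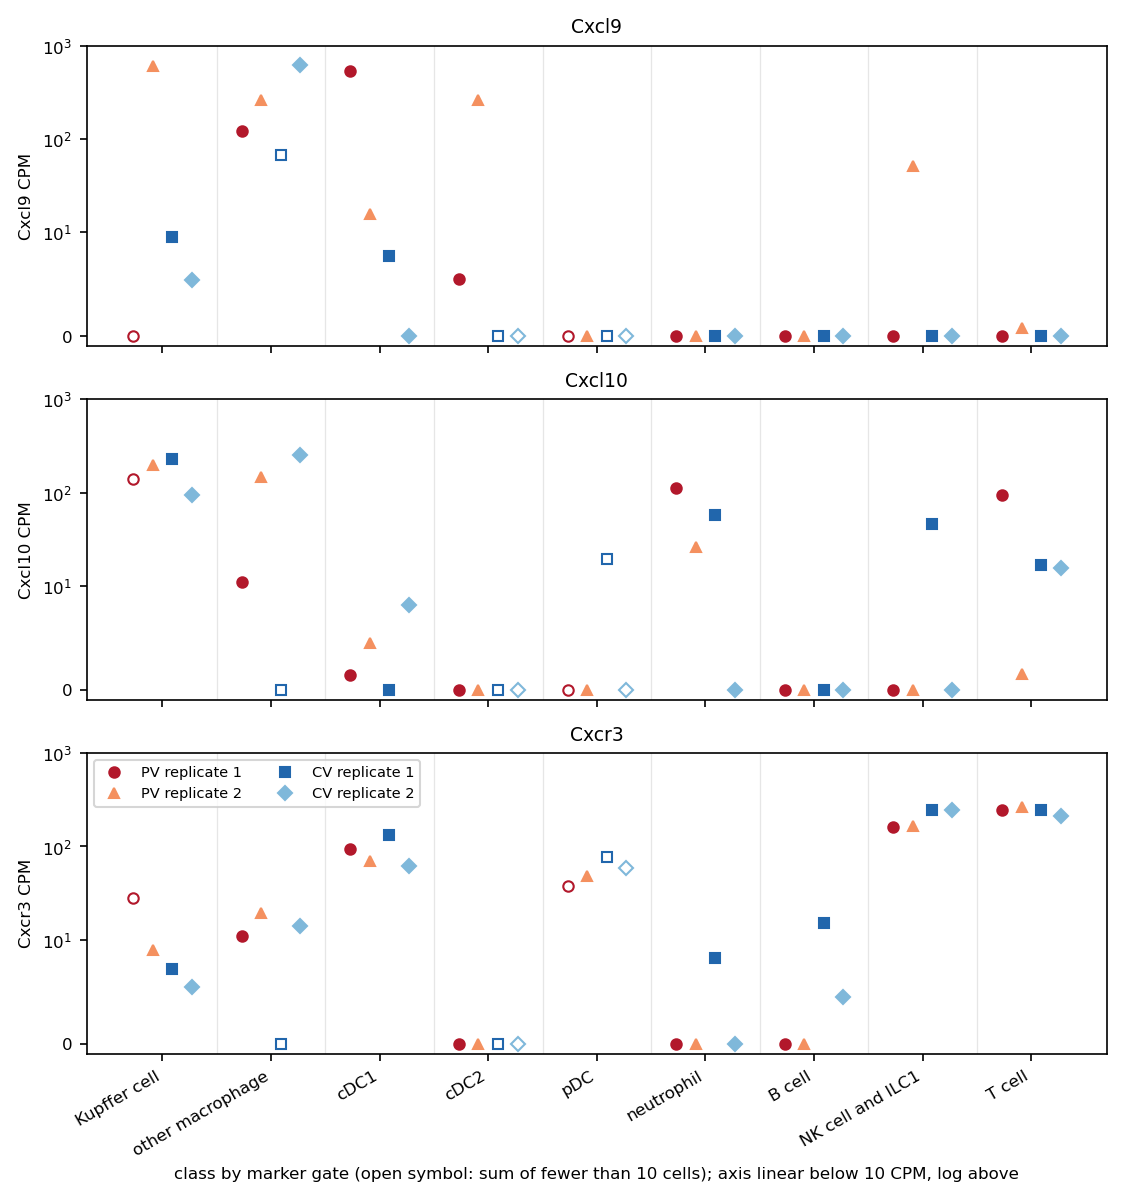
Each point is the level of a gene in CPM of summed UMIs for 1 cell class and library, with PV left of CV, on an axis that is linear below 10 CPM and log above. Open symbols are sums of fewer than 10 cells. Cxcr3 was similar in T cells of all 4 libraries, at 211.5 to 262.6 CPM, while Cxcl9 ranged from 0 to 607 CPM in Kupffer cells.

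Depth matters for a transcript this sparse, so shares were also taken at 3000 UMIs per cell. At that depth, Cxcr3 was detected in 48.6% and 48.9% of T cells in the PV replicates, against 49.7% and 43.9% in the CV replicates. The mean was 47.8 ± 2.61% (SD, n = 4), and 67.8 ± 5.43% before thinning. NK cells and ILC1 averaged 38.2 ± 10.3% and cDC1 15.0 ± 6.20%. Thinning left out 34 shallower T cells, 16 NK cells and ILC1 and 1 cDC1. Kupffer cells gave 3 of 171 (1.75%), neutrophils 1 of 47 (2.13%), and B cells 0 of 121, which allows a share with a detected UMI of up to 2.48%. B cells should carry little Cxcr3 and set the background, at a median depth of 3661.5 UMIs against 6218 in T cells.

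Innate lymphoid subsets differed in their Cxcr3 values. Cells gated as ILC1, the liver-resident relatives of NK cells, averaged 234 ± 36.7 CPM over the 4 libraries, with 212 and 196 CPM in the PV replicates and 254 and 275 CPM in the CV replicates. Cells gated as NK cells averaged 25.6 ± 36.7 CPM, on 19 cells in all and 3 Cxcr3 UMIs. The ILC1 values all lay above the NK values, but the NK cells were too few for a test. Of the 67 Cxcr3+ NK cells and ILC1, 2 showed no T cell marker, 13 held Cd3e and 11 held Trac, against 9, 7 and 6 of the 57 Cxcr3- cells. The part of T cells in these counts was not tested.

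Dendritic cells were split by subset. In cDC1, the cells that present antigen to CD8 T cells, Cxcr3 stood at 94.4 and 70.4 CPM in the PV replicates, against 131 and 61.5 CPM in the CV replicates. A UMI was found in 55 of 80 cDC1, of which 46 showed no T cell marker and 23 held 3 or more Cxcr3 UMIs. These cells are deep, at a median of 22022 UMIs, and at 3000 UMIs 12 of 79 held one. In pDC, the main makers of type I interferon, Cxcr3 stood at 38.1 and 48.0 CPM in the PV replicates, against 77.0 and 59.3 CPM in the CV replicates. In cDC2 there was none, and 0 of 40 cells allows a share with a detected UMI of up to 7.5%, which does not limit expression below detection. Of 12 Kupffer cells with Cxcr3, 4 also held the T cell receptor transcript Trac, against 3 of the other 216, and the part of T cell RNA in these counts was not tested.

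**Figure D3:**
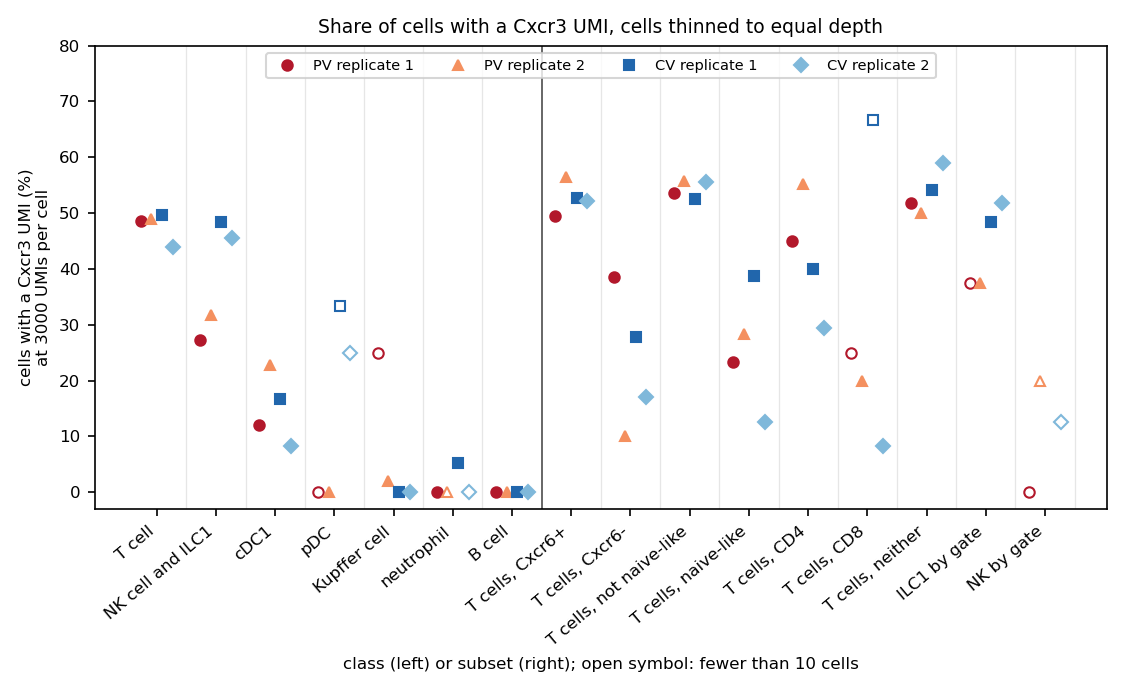
The percent of cells with a Cxcr3 UMI after thinning to 3000 UMIs is plotted per library, for cell classes (left) and lymphocyte subsets (right), with open symbols for fewer than 10 cells. T cells lay at 43.9% to 49.7%, cDC1 at 8.33% to 22.7% and B cells at 0%.

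Among T cells, Cxcr3 differed between subsets. T cells with a UMI of Cxcr6, the receptor that holds lymphocytes in liver sinusoids, had Cxcr3 levels of 267 ± 26.7 CPM, and T cells without one 92.4 ± 51.4 CPM (SD, n = 4 libraries). At 3000 UMIs, the shares of Cxcr6-bearing cells with Cxcr3 were 49.4% and 56.5% in the PV replicates and 52.6% and 52.2% in the CV replicates. Those of cells without Cxcr6 were 38.5% and 10.0% in the PV replicates and 27.8% and 17.1% in the CV replicates. In each of the 4 libraries the Cxcr6-bearing cells had the higher share. Cells that were not naive-like, showing fewer than 2 of 5 circulation genes, had 54.4 ± 1.58% with Cxcr3, and naive-like cells 25.7 ± 10.9%. CD8 T cells, 52 in all and 4 in CV replicate 1, had 30 ± 25.4% (8.33% to 66.7%), and naive-like CD8 T cells 11.1 ± 10.3%. CD4 T cells had 42.4 ± 10.7% and T cells with the NKT cell gene Zbtb16 54.6 ± 8.21%. By library, CD8 T cells had 25% and 20% in the PV replicates, against 66.7% and 8.33% in the CV replicates. CD4 T cells had 45% and 55.3%, against 40% and 29.4%. The CD8 share was thus the lower in each library except CV replicate 1, where it rests on 2 of 3 cells. Naive-like cells were 38 of the 52 CD8 and 50 of the 189 CD4 T cells. Naive-like CD4 T cells had 22.0 ± 6.87%. Among cells that were not naive-like, CD8 T cells had 41.25 ± 42.5%, on 14 cells, and CD4 T cells 50.4 ± 14.6%. The part of naive-like cells in the CD8 share was not tested. The library values of CD4, Zbtb16-bearing and Cxcr6-bearing cells overlapped. Since a shallow cell can miss a transcript, Cxcr3 shares were taken after thinning, while the subsets were gated at full depth. T cells without a Cxcr6 UMI had a median of 5458 UMIs and those with one 6415, and missed Cxcr6 was not corrected for.

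Genes of the pathway upstream of the ligands differed in level between cell types. Ifng UMIs lay mostly in lymphocytes, with 1714 UMIs in 267 T cells and 277 in 50 NK cells and ILC1, at 371 and 387 CPM on average over libraries. Kupffer cells held 6 UMIs. Its receptor chain Ifngr1 was found on both sides, at 455 CPM in Kupffer cells, 481 CPM in cDC1 and 398 CPM in T cells. The second chain, Ifngr2, was at 131 CPM in Kupffer cells and 2.95 CPM in T cells. Interferon-induced genes went both ways between these classes. Gbp2 was at 79.8 CPM in Kupffer cells and 26.5 CPM in T cells. Of its relatives, Gbp4 and Gbp7 were at 50.0 and 66.7 CPM in Kupffer cells, and at 119 and 126 CPM in T cells. The GTPase gene Igtp and the signalling inhibitor Socs1 were at 15.1 and 15.3 CPM in Kupffer cells, and at 75.0 and 110 CPM in T cells. Irf1 and Cd274 went the way of Gbp2, at 254 and 71.6 CPM in Kupffer cells, and at 106 and 22.7 CPM in T cells. Il12b, which encodes a cytokine subunit that drives Ifng, came from 6 mature dendritic cells with 241 UMIs and from 7 cDC1 with 31. Il18, which acts with it, was at 83.4 CPM in Kupffer cells and 63.9 CPM in cDC1. Dpp4, a surface peptidase that clips CXCR3 ligands, was at 145 CPM in cDC1 and 23.3 CPM in T cells.

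Zones were compared on UMIs summed per library, because cells of 1 library are not replicates. The labels do not say whether each library is a separate mouse. The p-values therefore reflect differences among these 4 libraries, some of which may be technical. The members were chosen with their counts in these libraries already seen, so their p-values describe the fits and are no independent support. In sums over all cells, fewer cells of a type and less RNA per cell cannot be told apart. In all cells, Cxcl9 was at 140 and 241 CPM in the PV replicates, against 5.83 and 17.3 CPM in the CV replicates. Both PV values lay above both CV values, as they did for 14.2% of the 10502 genes tested. The log2 difference, PV over CV, was 4.03 ± 0.53 (SE), with an adjusted p of 0.9999 in the quasi-likelihood test of edgeR. The unadjusted p was 0.000418, and DESeq2 gave 4.04 with an adjusted p of 4.53e-11. In edgeR the difference also passed without PV replicate 1 (4.29, adjusted p = 0.00297) and without PV replicate 2 (3.65, adjusted p = 0.0015), and did not without CV replicate 1 (3.46) or CV replicate 2 (5.02).

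The Cxcl9 difference in all cells was 2.63 with all shared barcodes kept. Without its top cell, PV replicate 1 kept 42 of 385 UMIs and PV replicate 2 kept 580 of 980, while CV replicates 1 and 2 kept 10 of 14 and 2 of 46. Both PV counts, as raw UMIs, still lay above both CV counts. The share of all genes with that order after the same step was not computed, so this is a description. The number of source cells was 7 and 23 in the PV replicates, against 7 and 3 in the CV replicates. In macrophages alone, Cxcl9 was at 98.4 and 585 CPM in the PV replicates, against 17.9 and 105 CPM in the CV replicates, on normalised library sizes. These overlapped, and the log2 difference was 2.61 ± 0.85 with an adjusted p of 0.9997 in edgeR. It passed without PV replicate 1 (3.25) and without CV replicate 2 (4.31), and was 0.67 without PV replicate 2 and 1.77 without CV replicate 1.

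Cxcl10 and Cxcr3 showed no zone difference past the test. In all cells, Cxcl10 was at 50.7 and 60.2 CPM in the PV replicates, against 64.9 and 27.1 CPM in the CV replicates, a log2 difference of 0.30 ± 0.40, which was 1.04 without CV replicate 1 and -0.22 without CV replicate 2. In macrophages the difference was -0.20 ± 0.50, with 0.23 without PV replicate 1, -1.65 without PV replicate 2 and 0.18 without CV replicate 1. In T cells it was 1.5 ± 1.04, and the single cell with 93 UMIs lies in PV replicate 1. Without that library the difference was -3.34, and with any other library left out it was 1.48 to 2.46 and passed the test. Cxcr3 in T cells gave 0.12 ± 0.15 and in all cells 0.0046 ± 0.26. Neither Cxcl9 in T cells nor Cxcr3 in macrophages had counts high enough to enter the test.

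Of the 28 genes listed for the interferon gamma axis, 24 were tested in all cells, 19 in T cells and 18 in macrophages, and none passed. Over all genes tested edgeR called 0%, or 0 of 10502, 0 of 7918 and 0 of 5758, with 230, 194 and 96 at an unadjusted p under 0.05. DESeq2 called 7 higher and 2 lower genes in all cells, 0 in T cells and 2 higher in macrophages. The list's median log2 difference was 0.20, 0.21 and 0.06, against 0.0089, -0.0048 and -0.0035 over all genes tested. With 2 libraries per zone, an exact permutation test of 1 value cannot go below p = 0.333.

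To see what else Cxcr3-bearing T cells express, T cells were thinned to 5107 UMIs each, divided by whether a Cxcr3 UMI remained, and summed per library. The Cxcr3+ cells numbered 105 and 87 in the PV replicates and 76 and 67 in the CV replicates. The Cxcr3- group had 44 and 54 cells in the PV replicates and 39 and 51 in the CV replicates, and some of these may still express the gene. With a library block in edgeR, 160 of 3648 genes passed at an adjusted p of 0.05 (4.39%), of which 24 were higher (0.658%) and 136 lower (3.73%) in Cxcr3+ cells. DESeq2 called 8 higher and 97 lower, and edgeR called 5 higher and 74 lower without PV replicate 2 and 8 higher without CV replicate 2.

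Genes of circulating and naive T cells were lower in Cxcr3+ cells, with 7 of the 8 tested passing and a list median of -1.49, against -0.0013 over all genes. Ccr7, the receptor that guides naive cells into lymph nodes, had 1 and 0 UMIs in the Cxcr3+ groups of the PV libraries and 1 and 3 in those of the CV libraries, against 15, 13, 26 and 34 in the Cxcr3- groups. Its log2 difference was -4.87 ± 0.43 (edgeR, adjusted p = 5.18e-07). Klf2, a transcription factor that keeps T cells quiescent and circulating, was at 48.1, 203, 161 and 208 CPM in Cxcr3+ cells, against 177, 676, 522 and 460 CPM in Cxcr3- cells. Its difference was -1.58 ± 0.15 (adjusted p = 7.03e-07). S1pr1, the receptor for exit from tissue into blood, had a difference of -2.56 ± 0.29. The naive cell genes Dapl1, Lef1, Tcf7 and Il7r had differences of -4.29, -1.26, -1.39 and -0.81. For Klf2, Ccr7, S1pr1 and Lef1 every library had the lower value in Cxcr3+ cells. Satb1, at -0.22, did not pass.

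Among 88 ribosomal protein genes tested, a group added after the values were seen, 71 were lower and none higher in Cxcr3+ cells, with a median of -0.29. Rps29, at -0.43, and Rps20, at -0.51, were among the 12 lower genes with the smallest p. So were Tsc22d3, a glucocorticoid-induced gene, at -1.72, and the CD8 chain gene Cd8b1, at -3.29.

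The 12 higher genes with the smallest p had log2 differences of 0.43 to 0.89. Id2, a transcription factor needed for innate lymphoid cells and effector T cells, was at 1805, 1733, 1701 and 1700 CPM in Cxcr3+ cells (PV libraries, then CV), against 1314, 853, 1134 and 1258 CPM in Cxcr3- cells. Its log2 difference was 0.62 ± 0.09 (edgeR, adjusted p = 9.75e-05), with every library higher. Ly6c2, a surface protein of memory cells, had 0.88 ± 0.15 (0.000457), which did not pass with called doublets left out (0.65) or with a gate of 2 markers (0.23). Nkg7, a component of cytotoxic granules, had 0.43 ± 0.08 (0.00222). Klrc1, a chain of the NKG2 receptors, had 0.89 ± 0.21, a call lost without PV replicate 1 (0.67) and without CV replicate 2 (0.78), and the adhesion receptor Cd226 had 0.50 ± 0.12. The Cd226 call was lost without PV replicate 2 (0.40), without CV replicate 2 (0.50), in DESeq2 (0.50) and without the library block (0.49). Cxcr6 itself had 0.52 ± 0.13 (adjusted p = 0.0247), a call lost without PV replicate 2 (0.30), without CV replicate 2 (0.54), with called doublets left out (0.38) and in DESeq2 (0.53). The other genes of the 12 were Lyst (0.65), Gimap7 (0.57), Arhgef6 (0.88), Mmp9 (0.88), Mlec (0.80) and Serinc3 (0.47). Each of these lost its call without PV replicate 2 (0.57, 0.56, 0.97, 0.71, 0.80 and 0.39).

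**Figure D4:**
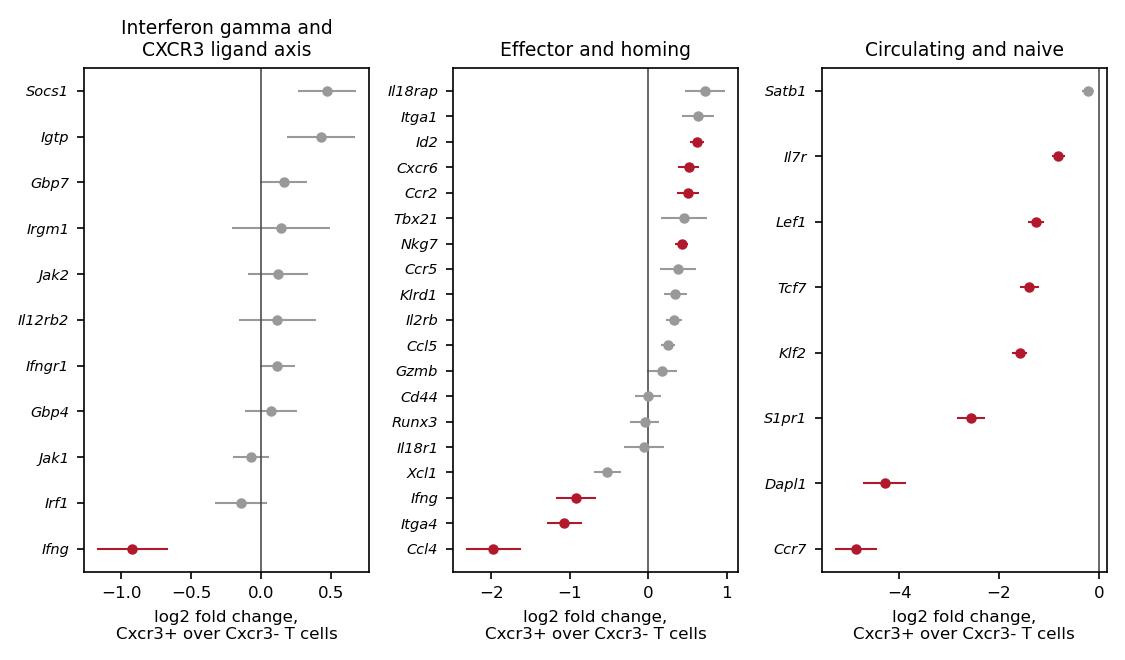
Each point is the log2 difference, Cxcr3+ over Cxcr3- T cells, of a tested gene in the 3 lists, for the genes reported here, with its SE as a bar, in red for genes past the adjusted p of 0.05 and in grey for the others. The circulating and naive genes lie below 0, with 7 of 8 past the test, and the effector list has 4 higher and 3 lower.

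Effector and homing genes went both ways, with 4 of 19 higher and 3 lower and a list median of 0.33. Higher were Id2, Nkg7, Cxcr6 and the chemokine receptor Ccr2 (0.50 ± 0.14, adjusted p = 0.0488 in edgeR), whose call was lost without PV replicate 1 (0.53), PV replicate 2 (0.45) or CV replicate 2 (0.41). Lower were the chemokine Ccl4 (-1.97 ± 0.35), the integrin Itga4 (-1.07 ± 0.22) and Ifng (-0.92 ± 0.25, adjusted p = 0.0365). The Ifng call was lost without PV replicate 1 (-0.72), without PV replicate 2 (-0.46) and in DESeq2 (-0.86), and those of Ccl4 and Itga4 were lost without PV replicate 2 (-1.10 and -0.87) and in DESeq2 (-1.40 and -1.15). The Ifng and Ccl4 differences were lower in PV than in CV in a test of state by zone (edgeR, adjusted p = 0.000764 and 0.0417), and 1 Cxcr3- cell of PV replicate 1 held 37 of that group's 38 Ccl4 UMIs. Tbx21, the transcription factor that switches on Cxcr3 in type 1 lymphocytes, gave 0.46 ± 0.29 and did not pass. Within the interferon gamma axis, Ifng was the 1 gene of 12 to pass, and the list median was 0.11.

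Fewer genes passed without naive-like T cells. When these were left out, a step chosen after the data were seen, 6 of 2883 genes were higher (0.208%) and 41 lower (1.42%). Of the circulation genes 4 were still tested and Klf2 alone passed (-1.65), and no ribosomal gene of 86 passed. Id2 (0.30), Nkg7 (0.18), Cxcr6 (0.06) and Ccr2 (0.16) no longer passed in edgeR. Klrc1 did (0.83), as did Ifng (-1.35) and the interleukin-18 receptor chain Il18rap (1.45, adjusted p = 0.0121).

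Kupffer cells with and without Cxcl10 were compared in the same way, at 3051 UMIs per cell. This test was added after the counts were seen, since the 5 positive cells that had been required in each of 3 libraries were present in fewer libraries. The Cxcl10+ group had 2 and 20 cells in the PV replicates and 15 and 3 in the CV replicates, and the Cxcl10- group had 2 and 77 cells in the PV replicates and 23 and 29 in the CV replicates. In edgeR 22 of 809 genes were higher in Cxcl10+ cells (2.72%) and none lower, with 66 at an unadjusted p under 0.05, and DESeq2 called 14 higher. Without CV replicate 1 no gene passed, and without PV replicate 2 there were 11 higher and 1 lower.

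The higher genes with the smallest p in Cxcl10+ Kupffer cells were led by Nfkbia and Cxcl2. Nfkbia, the inhibitor that NF-kappa B induces against itself, was at 5752, 2722, 2319 and 3282 CPM in Cxcl10+ cells (PV libraries, then CV), against 491, 1157, 868 and 593 CPM in Cxcl10- cells. The log2 difference was 1.82 ± 0.31 (edgeR, adjusted p = 9.32e-05), and every library was higher. Cxcl2, a neutrophil chemokine, gave 2.27 ± 0.41 and Ccl4, a chemokine for lymphocytes and monocytes, 2.06 ± 0.42. For Ccl4, CV replicate 2 went the other way, with 156 CPM in Cxcl10+ and 728 CPM in Cxcl10- cells, and its call was lost without PV replicate 2 (2.58), in DESeq2 (1.96) and with a gate of 4 markers (0.99). The mRNA decay factor Zfp36 gave 1.62, the phosphatase Dusp1 1.69, the activation marker Cd83 1.76, the adhesion molecule Icam1 1.84 and the nuclear receptor Nr4a1 1.69, all past the test. All 12 named genes lost their call with no filter on low counts, at 1.22 to 2.01, and 11 lost it without CV replicate 1, at 1.03 to 2.01, where Cxcl2 was not among the genes tested.

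**Figure D5:**
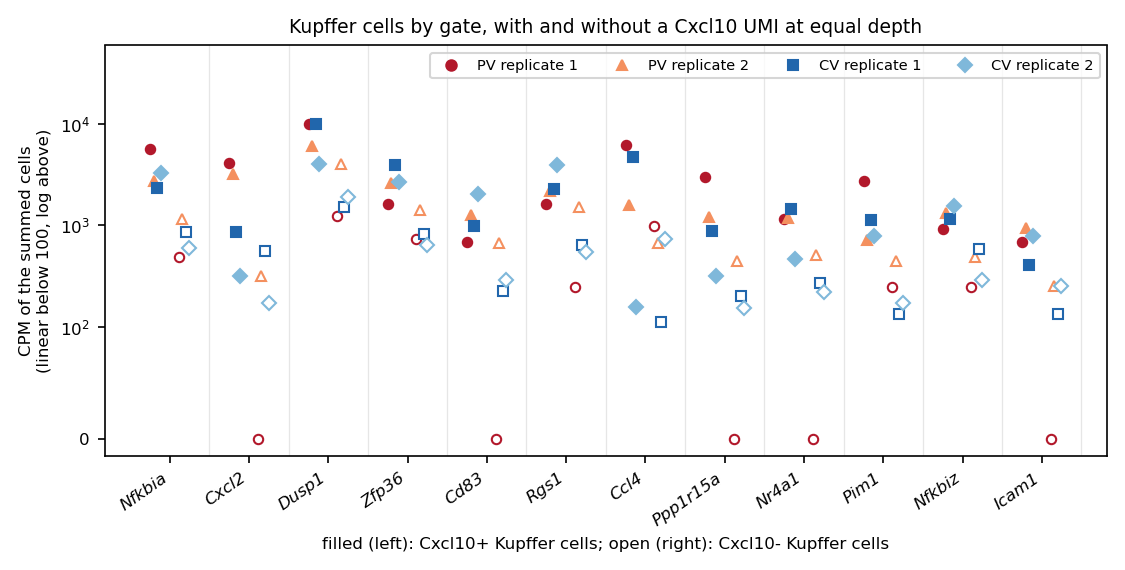
Levels in CPM of the 12 higher genes with the smallest p are plotted for Cxcl10+ (filled, left) and Cxcl10- (open, right) Kupffer cells, with 1 point per library, on an axis that is linear below 100 CPM and log above. Nfkbia and Cxcl2 were higher in Cxcl10+ cells in all 4 libraries, and Ccl4 in 3 of 4.

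Of the interferon gamma axis, 3 genes could be tested in Kupffer cells, and Irf1 passed (1.37 ± 0.41, adjusted p = 0.0453 in edgeR), higher in 3 of 4 libraries. Among genes outside the naming rule, the scavenger receptor Marco passed (1.23 ± 0.31, adjusted p = 0.00699) and the Kupffer lectin Clec4f did not (-0.28 ± 0.27). The immediate early genes Fos (1.35) and Junb (1.42) and the heat shock gene Hspa1b (1.57), which are known to respond to tissue dissociation, also passed. The part of dissociation in the higher genes, Nfkbia, Cxcl2, Dusp1, Zfp36 and Nr4a1 included, was not tested. For Cxcl9 no such comparison was made, since 0, 6, 1 and 0 thinned Kupffer cells held a UMI in PV replicates 1 and 2 and CV replicates 1 and 2.

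The genes most like each member were found from the Pearson correlation of log2(CPM + 10) over 30 class-by-library sums of at least 10 cells, among 10447 genes. The sums come from 4 libraries and 10 classes, share depth and cell class, and carry no p. For Cxcl9 the closest were the chemokine Cxcl16 (0.79), Mfsd13a (0.76), F11r (0.76), Tmbim1 (0.76) and Hotairm1 (0.75). For Cxcl10 they were the apoptotic cell receptor Mertk (0.77), Rab1a (0.77), the guanylate-binding protein Gbp3 (0.76), Mag (0.75) and Pla2g4a (0.75). For Cxcr3 they were Serpinb6b (0.87), Ndufa13 (0.87), Prrt1 (0.85), the interleukin-12 receptor chain Il12rb2 (0.84) and Ifng (0.84). Cxcl9 and Cxcl10 correlated with each other at 0.33, and with Cxcr3 at -0.20 and -0.17.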

How the data were processed

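The files deposited by the authors hold UMI counts, not normalised, as a gene by barcode matrix for each library. The labels' protocols name the 10x 3′ v3.1 kit. Cell Ranger 4.0.0 and mm10 are named in the submitters' processing notes. The annotation is not given in the sources used here. Groups follow the zone and replicate in the labels. Symbols were matched for 32158 of 32285 identifiers, and 52 that share a symbol were kept apart.

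Cells with at least 200 genes and at most 10% mitochondrial UMIs were kept. The filters on quality left out 71 and 109 barcodes of the PV libraries and 70 and 42 of the CV libraries. The rule on shared barcodes left out a further 218 and 134 in PV and 182 and 170 in CV. Scrublet (scanpy 1.11.5, rate 3%) called 2 and 7 doublets in PV and 3 and 1 in CV, which stayed in the main results. No clustering was done. Classes are gates on marker genes, so names depend on those genes.

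CPM, counts per 1000000 UMIs of the summed cells, were computed here. Wilson intervals are at 95%, and a count of 0 allows 3 counts. Both cover counting error only. Thinning drew UMIs without replacement from each cell and left out shallower cells. Summed counts went into the quasi-likelihood test of edgeR 4.0.16 (R 4.3.3), with TMM, filterByExpr and Benjamini-Hochberg adjustment at 0.05, and DESeq2 1.42.0 was the alternative. States of T cells and Kupffer cells were compared at the 25th percentile of their depth, without the gene that defines the state and with the library as a block. On simulated data, edgeR recovered 9.23%, 45.5% and 9.23% of 2-fold changes in all cells (10266 genes fitted), T cells (7601) and macrophages (5416). It recovered 90.0%, 86.2% and 85.7% of 4-fold changes, with 4, 0 and 6 false calls. For the Cxcr3 and Cxcl10 states it recovered 78.7% (3463 genes) and 61.9% (739 genes) of 2-fold changes, with 10 and 3 false calls. Genes were simulated at the trend of the dispersion, without counts held in single cells, so these rates do not cover genes such as Cxcl9.

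The members, lists and tests were chosen with earlier results of these data known. The genes named are the members, the genes of the 3 lists, the 5 genes most like each member, and for each state the 12 genes with the smallest p in each direction. Of these, 2 genes are not reported here. Ribosomal genes, Csf2, Gadd45b, Marco, Clec4f, Fos, Junb, Hspa1b and genes of single cells were chosen after their values were seen. Replicate numbers were not used to pair the libraries across zones in the main fits, and the labels do not say whether same-numbered libraries share an animal. Other settings tried were DESeq2, no filter on low counts, a replicate block, gates of 2 or 4 markers, at least 1000 UMIs per cell, shared barcodes kept, doublets left out, no thinning and each library left out.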

Additional observations from a re-analysis of the deposited data

Results flagged for a closer look

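The difference between Cxcr3+ and Cxcr3- T cells was not the same in both zones for Ifng, Csf2, Gadd45b, Nr4a1 and Ccl4. This was tested as an interaction of state and zone in edgeR, chosen after the data were seen, and 6 of 3648 genes passed, Gm42418 included, all with a negative value, with 159 at an unadjusted p under 0.05. For Ifng the difference, PV minus CV in the log2 ratio of Cxcr3+ over Cxcr3- cells, was -1.93 (adjusted p = 0.000764). The ratio itself was -1.69 and -2.0 in the PV replicates, against -0.32 and 0.66 in the CV replicates. Cxcr3+ T cells held 71 and 111 Ifng UMIs in the PV replicates and 202 and 102 in the CV replicates. Cxcr3- T cells held 90 and 255 in the PV replicates and 122 and 44 in the CV replicates, with up to 71 in 1 cell.

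For Csf2, which encodes the growth factor GM-CSF, the difference was -3.58 (adjusted p = 0.00466), with ratios of -5.27 and -3.55 in the PV replicates against -1.21 and 1.03 in the CV replicates. Of the 106 Csf2 UMIs in Cxcr3- cells of PV replicate 1, 93 lay in 1 cell, and of the 128 in PV replicate 2, 103 lay in 1 cell. For the chemokine Ccl4 it was -2.66 (0.0417), with ratios of -2.28 and -2.95 in the PV replicates against -1.35 and 1.84 in the CV replicates. In PV replicate 1, 1 cell held 37 of the 38 Ccl4 UMIs of Cxcr3- cells. The early response genes Gadd45b (-1.97, adjusted p = 0.00734) and Nr4a1 (-1.81, adjusted p = 0.0188) also passed in edgeR. The part of single cells in these differences was not tested.

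Barcodes that were set aside, because they failed the filters or held less than 70% of their barcode's UMIs, also held counts of the members. Cxcl9 had 53 and 44 such UMIs in the PV replicates, against 65 and 79 in the CV replicates. Kept cells had 385 and 980 in the PV replicates, against 14 and 46 in the CV replicates. The barcode of the cDC1 with 343 Cxcl9 UMIs also occurred in the other 3 libraries, with 74 Cxcl9 UMIs in those copies, and that of the cell with 400 had 26 in its copies. Cxcl10 had 24 and 36 set-aside UMIs in the PV replicates, against 50 and 33 in the CV replicates. Cxcr3 had 32 and 10 in the PV replicates, against 22 and 21 in the CV replicates. With shared barcodes kept, the zone difference of Cxcl9 in all cells was 2.63 and did not pass.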

How the results depend on the processing

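Of 84 alternative values for the members' zone differences, 64 kept direction and call, 10 passed the test where the main value did not, and 10 had the other sign. For Cxcl9 in all cells (4.03) the values with 1 library left out ran from 3.46 to 5.02, and DESeq2 (4.04) and no filter on low counts (4.04) passed. In macrophages (2.61) they ran from 0.67 to 4.31, and no filter (2.58) passed. Cxcl10 ran from -0.22 to 1.04 in all cells, from -3.34 to 2.46 in T cells and from -1.65 to 0.23 in macrophages. Cxcr3 in all cells, near 0, changed sign with a replicate block (-0.023), in DESeq2 (-0.0056), with at least 1000 UMIs per cell (-0.0036), with doublets left out (-0.00052) and among the left-out libraries (-0.37 to 0.28). Cxcr3 in T cells kept its sign at 0.04 to 0.20. The cause of these changes was not tested.

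Genes past the zone test, 0 in each comparison, were the least stable. In all cells, 0 to 52 were higher and 0 to 177 lower with 1 library left out, 7 and 2 in DESeq2, and 89 and 62 without a filter. In T cells, 3 to 28 were higher and 3 to 45 lower with 1 library left out, and 1 was higher with the replicate block. In macrophages, 10 to 162 were higher and 0 to 152 lower with 1 library left out, 1 was higher with the block, 2 in DESeq2, and 38 and 3 without a filter. A fit with 1 library in a zone assumes that it varies like the others. The gates cannot move sums over all cells. Same-numbered libraries deviated with correlations of -0.024, 0.062 and 0.014 in all cells, T cells and macrophages, so the main fits did not pair them. Values near 0 cannot tell whether same-numbered libraries share an animal. The replicate block changed no call of a member.

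For the Cxcr3 states, 24 higher genes became 5 to 24 with 1 library left out, 8 without the library block, 8 in DESeq2, 54 without a filter, 12 with doublets left out, 55 without thinning and 6 without naive-like cells. The 136 lower genes became 74 to 131, 70 without the block, 81 with doublets left out and 41 without naive-like cells. For the Cxcl10 states, 22 higher genes became 0 to 21 with 1 library left out, 14 in DESeq2, 3 without a filter, 9 with shared barcodes kept and 12 with a gate of 4 markers. Lower genes numbered 0 to 1, 4 with shared barcodes kept and 1 with a gate of 4 markers. Of 468 values for named genes, 355 kept their call, 113 lost it and none changed sign, and DESeq2 gave no adjusted p for Ccr7, S1pr1 and Cd8b1. Of 216 class levels, 203 moved by at most 1 SD. With 2 libraries per zone, leaving 1 out always moves the mean by less than the SD. Such values, counted among the 216, could not come out as moved and say nothing about stability.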

Other observations

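Cells that received no class, 64 in all, held 80 Cxcl9 UMIs in 1 cell of PV replicate 2. That cell had 17758 UMIs, 4 monocyte and 4 cDC2 markers, 48 UMIs of Gbp2 and 24 of Isg15. Il12rb2, the interleukin-12 receptor chain, was at 74.4 CPM in NK cells and ILC1 and 48.7 CPM in T cells, as means over 4 libraries. Cd274, which encodes PD-L1, was at 278 CPM in neutrophils and 71.6 CPM in Kupffer cells. Irf1 was at 450.0 CPM in neutrophils and 254 CPM in Kupffer cells. In 2 of 80 cDC1, 58 UMIs of Ifng were found.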
